A study of Mus musculus with 2 samples.

Results

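Dppa genes and inner cell mass markers were compared between mouse morulae depleted of Nat10 and control morulae. The group holds 10 genes, chosen by name (Dppa2, Dppa4, Dppa5a, Utf1, Spic, Lin28a, Carm1, Tdgf1, Gdf3 and Tdh), and all 10 were found among the 12836 genes of the table. Per the labels, 1 library came from ICR embryos that had received double-stranded RNA for Nat10 (dsNat10), and 1 from ICR embryos that had received double-stranded RNA for GFP (dsGFP), a jellyfish protein that mice lack. Both groups were thus injected, and both were pools of morulae: the number given is 50, without saying if that is the number in each library. Polyadenylated RNA was amplified as full-length cDNA by the SMART-seq2 protocol and sequenced with paired ends. More genes were at 0 reads in dsNat10, 2651 of 12836 (20.7%), than in dsGFP, 451 (3.51%), and the part of this in any value of 0 or near 0 was not tested. None of the 10 members was at 0 in either library. With 1 library per group, no difference has a replicate check and no p-value was computed.

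The morula is the ball of compacted cells that precedes the blastocyst, in which the inner cell mass, source of the embryo proper, separates from the outer trophectoderm. Genes of this set mark the pluripotent state, in which a cell can still form every tissue of the body. Dppa2 and Dppa4 are DNA-binding proteins with a SAP domain that act as a pair and, in mouse embryonic stem cells, switch on genes of the 2-cell stage. Nat10 writes N4-acetylcytidine on RNA, and the series concerns that mark on the mRNA of Nop2 at the passage from morula to blastocyst.

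None of the 10 genes was higher or lower in dsNat10 by 2-fold or more. Carm1 had the largest difference, at 1.76-fold lower, Spic was 1.37-fold lower, and Tdgf1 was 1.22-fold higher. The most abundant member, Dppa5a, differed by 1.07-fold. Level here means CPM, reads per 1000000 reads after TMM scaling, and each fold is given with a 95% counting interval. Amplified reads carried no molecular tags and are not separate molecules, so these intervals cover counting error only. In pooled embryos, fewer cells of a type and less RNA per cell cannot be told apart.

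Calls followed a size rule: a mean of at least 5 CPM over both libraries, a log2 ratio (dsNat10 over dsGFP, with 1 added to each CPM) of 1 or more in size, and an interval that excluded equality. All 10 members passed the filter on mean CPM, and 0 were called higher and 0 lower, while 30.5% of all 8738 genes that passed were called (15.2% higher and 15.3% lower). Calls were rarer among abundant genes, and most members are abundant. Between 5 and 20 CPM, where no member lies, 54.7% of genes were called. Of genes with a mean CPM of 50 to 200, where 5 members lie, 12.3% were called, and of those at 200 or more, where 4 members lie, 3.02% were called. Carm1 alone lies between 20 and 50 CPM, where 31.6% of 2200 genes were called. The absence of calls among the other 9 members is therefore close to what holds for most genes of their abundance. With a limit of 1.5-fold in place of 2-fold, Carm1 alone was called, against 48.9% of all genes.

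The median log2 ratio of the members was -0.03, with a range of -0.79 to 0.29, against a median of 0.01 over all genes that passed. By size alone, without sign, the members' median log2 ratio was 0.17, against 0.57 over all genes that passed. Within bands of abundance the gap was smaller: the 5 members at 50 to 200 CPM had a median size of 0.12 against 0.39 for all 2420 genes there, and the 4 members at 200 CPM or more had 0.16 against 0.27 for 1126 genes. Carm1, at 0.79, lay above its band's median of 0.65. In 7 members the counting interval excluded equality, 3 above and 4 below it. The same share was not computed over all genes. Since the interval narrows as reads increase, this count is not read as a trait of the members.

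**Figure D1:**
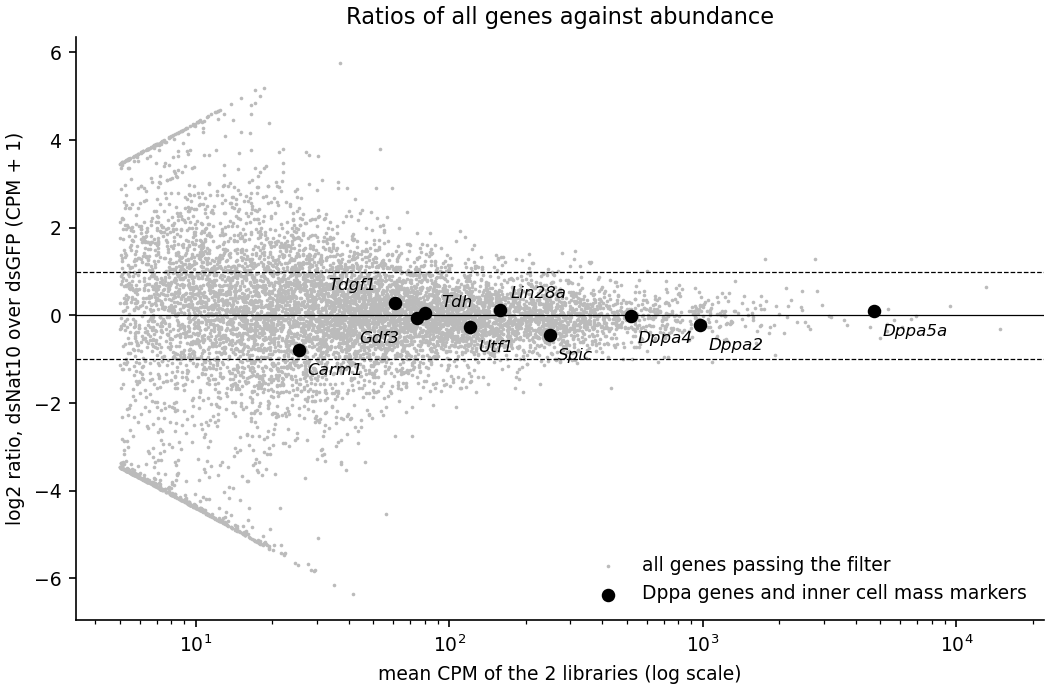
Log2 ratio of dsNat10 over dsGFP (CPM plus 1) against mean CPM on a log axis for the 8738 genes that passed the filter (grey points) and the 10 members (black points, named). Dashed lines mark log2 ratios of -1 and 1. The members lie between -0.79 and 0.29, inside the dashed lines, and the grey cloud narrows with abundance.

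Libraries summed to 28303119 estimated reads in dsNat10 and 29139232 in dsGFP. Nat10 itself had 37 reads in dsNat10 against 886 in dsGFP, 23.7-fold lower (17.1 to 33.9), and Nop2 had 5787 against 8365. Trophectoderm markers were present in both libraries, with 7 of 8 in the table, 1 higher and 3 lower, and a summed TPM of 1858 in dsNat10 and 2147 in dsGFP. Cdx2 was 4.52-fold, Tead4 3.07-fold and Krt8 2.10-fold lower. Cdx2, at 3.85 CPM in dsNat10 and 17.4 CPM in dsGFP, passed the filter only through dsGFP. Eomes was higher, with 374 reads against 4, and passed the filter only through dsNat10. Gata3, the most abundant, had 39991 reads against 30412. Of 6 primitive endoderm markers, 3 were in the table, 1 higher (Pdgfra) and 0 lower, with a summed TPM of 194 in dsNat10 and 223 in dsGFP. Over all genes that passed, 15.2% were called higher and 15.3% lower. Markers of other cells were scarcer: 1 of 6 cumulus markers was measured (Amhr2, summed TPM of 23.9 and 26.9 in dsNat10 and dsGFP), 3 of 8 macrophage or blood markers (75.2 and 82.5) and 1 of 3 fibroblast markers (0 and 0.08). Whether the reads of these markers came from such cells was not measured, and the part of such cells in the results was not tested.

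The sequence that Dppa5a shares with its copies is shown because the counts of this gene carry a fraction. The stretch is the last 150 bases of exon 2 of Dppa5a, which is coding (GRCm38, chr9:78367721-78367870, minus strand, GENCODE M21). Beneath it stand the best matching 150 bases of the pseudogenes Dppa5b and Gm15310, where capitals mark bases that differ from Dppa5a. Dppa5b (whole gene at chr9:78245550-78246135, plus strand) has 5 mismatches there. Gm15310 (whole gene at chr16:94358941-94359312, minus strand) has 6. The pseudogene Gm6798, which shares 10 of the 520 distinct 100-base stretches of Dppa5a, is not shown. The pseudogene Dppa5c has the same 150 bases as Dppa5b.
Dppa5a: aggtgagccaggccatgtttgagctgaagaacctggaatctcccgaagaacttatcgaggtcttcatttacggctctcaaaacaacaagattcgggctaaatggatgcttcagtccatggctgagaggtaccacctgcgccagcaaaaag
Dppa5b: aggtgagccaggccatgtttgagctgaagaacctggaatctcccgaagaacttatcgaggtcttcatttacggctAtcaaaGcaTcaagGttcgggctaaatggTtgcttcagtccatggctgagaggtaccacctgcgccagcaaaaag
Gm15310: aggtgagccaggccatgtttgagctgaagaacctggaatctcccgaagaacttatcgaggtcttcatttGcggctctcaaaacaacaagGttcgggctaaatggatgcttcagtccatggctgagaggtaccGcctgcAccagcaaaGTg

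Promoter sequences came from a table drawn from RefSeq (GRCm38.p6), in which 4 of the 10 members were matched by symbol. Shown are the 250 bases before the transcript start that this source gives for each gene, 5′ to 3′ on the gene's strand. They are the regulatory sequences next to that start. For Lin28a that start lies inside the gene's bounds (134003330 to 134019196), and so does the window. Capitals mark every match, on either strand, to 6 short motifs. The TATA box was searched as TATAAA and the CCAAT box by its own letters. The GC box was searched as GGGCGG, and the core that Klf factors bind as CACCC. For the core that Sox factors bind the letters were ACAATG, and for the octamer that Oct factors bind they were ATGCAAAT. The windows are chr4:134018817-134019066 on the minus strand for Lin28a, chr7:139943606-139943855 on the plus strand for Utf1, chr9:110946159-110946408 on the minus strand for Tdgf1 and chr10:88683024-88683273 on the minus strand for Spic.
Lin28a: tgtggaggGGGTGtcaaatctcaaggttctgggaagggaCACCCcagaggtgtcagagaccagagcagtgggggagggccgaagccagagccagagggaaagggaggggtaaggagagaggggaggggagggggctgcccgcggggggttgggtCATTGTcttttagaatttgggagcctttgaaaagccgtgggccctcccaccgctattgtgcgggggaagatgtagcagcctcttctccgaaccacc
Utf1: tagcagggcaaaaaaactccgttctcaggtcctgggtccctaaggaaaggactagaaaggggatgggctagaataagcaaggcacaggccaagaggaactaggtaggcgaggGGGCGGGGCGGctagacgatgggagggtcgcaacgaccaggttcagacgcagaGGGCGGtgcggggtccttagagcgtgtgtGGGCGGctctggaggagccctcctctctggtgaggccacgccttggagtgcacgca
Tdgf1: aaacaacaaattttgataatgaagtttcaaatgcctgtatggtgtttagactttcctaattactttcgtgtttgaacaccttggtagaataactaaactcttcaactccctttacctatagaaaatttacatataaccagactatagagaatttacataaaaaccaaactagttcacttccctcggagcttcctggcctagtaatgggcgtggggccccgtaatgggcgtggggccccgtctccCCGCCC
Spic: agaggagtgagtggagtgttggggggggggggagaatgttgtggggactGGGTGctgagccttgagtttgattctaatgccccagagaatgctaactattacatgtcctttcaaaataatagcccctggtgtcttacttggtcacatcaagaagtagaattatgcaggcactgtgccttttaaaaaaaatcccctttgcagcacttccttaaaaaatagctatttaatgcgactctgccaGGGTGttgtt

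Utf1 held 4 GC boxes, the first pair of which overlap by a base, and Tdgf1 held 1, at 6 bases before the start, while 32.7% of 32851 promoter windows of the same length hold at least 1. The Klf core occurred at 2 places in Lin28a and at 2 in Spic, against 52.0% of all windows with 1 or more. Lin28a alone of the 4 held the Sox core, 96 bases before the start, a motif found in 10.7% of windows. The TATA box (12.4% of windows), the CCAAT box (33.8%) and the octamer (1.60%) matched none of the 4. The windows of Lin28a and Utf1 were 61.2% and 61.6% G or C, those of Tdgf1 and Spic 42.0% and 44.8%, and the median over all windows was 52.4%. These matches describe letters only.

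Expression levels per length, in the authors' TPM, ran from 8.97 to 15850 in dsNat10 and from 15.3 to 14236 in dsGFP, in nearly the same order. Dppa5a was first, followed by Dppa2, Dppa4, Spic, Utf1 and Gdf3, and Tdgf1 and Carm1 came last. Lin28a and Tdh exchanged places, with 74.0 and 70.5 TPM in dsNat10 against 65.3 and 65.7 TPM in dsGFP, so their order in dsGFP rests on less than 1 TPM. Summed over the 10 members, TPM was 17981 in dsNat10 and 16538 in dsGFP, of which Dppa5a made up 88.1% and 86.1%. Without Dppa5a, the sum was 2131 TPM in dsNat10 and 2302 TPM in dsGFP, so the direction of the sum turns on that gene.

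**Figure D2:**
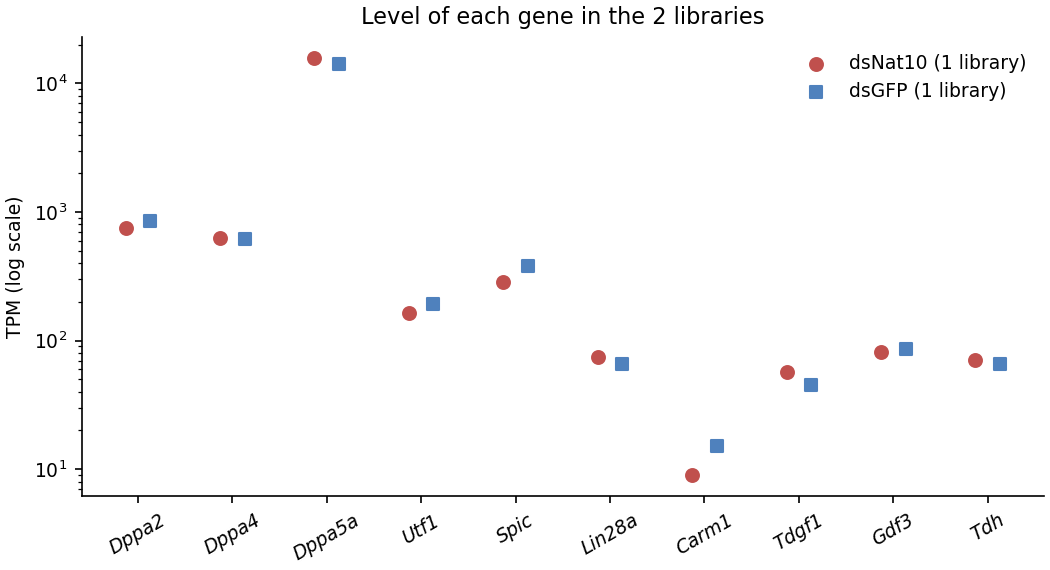
TPM on a log axis for the 10 members, with 1 point per library (red circles dsNat10, blue squares dsGFP). Dppa5a stands at 15850 and 14236 TPM, Carm1 at 8.97 and 15.3 TPM, and the points of a gene lie close together compared with the distances between most genes.

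Among the Dppa genes, Dppa5a (Entrez gene 434423, chromosome 9, 78367052 to 78368199, minus strand) encodes a small protein with a KH domain, a fold that binds RNA. It had 139956.02 estimated reads, 15850 TPM and 10837 FPKM in dsNat10, and 131685.01 reads, 14236 TPM and 9956 FPKM in dsGFP. Only 1 gene of the table had a higher TPM in either library, since Dppa5a ranked 2 of 12836 in both. The gene took 0.494% of all reads in dsNat10 and 0.452% in dsGFP. Its level was 1.07-fold higher in dsNat10 (1.066 to 1.082), and 1.11-fold higher in TPM. The fractional parts of its counts, 0.02 and 0.01, are small beside the counts. Of the 520 distinct 100-base stretches of its transcript, 5 occur in Dppa5b and 10 in the pseudogene Gm6798, so few exact matches of that length are shared. Matches with mismatches were not counted, and how reads from such copies were assigned is not given.

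Dppa2 (Entrez gene 73703, chromosome 16, 48310274 to 48319513, plus strand) and its paralogue Dppa4 (Entrez gene 73693, 48283735 to 48294292, plus strand) are neighbours on the chromosome. Dppa2 had 25658 reads, 755 TPM and 516 FPKM in dsNat10, and 30148 reads, 843.5 TPM and 590 FPKM in dsGFP. It was 1.16-fold lower in dsNat10 (1.14 to 1.18). Dppa4, its partner, showed no difference beyond counting error, at a ratio of 0.996 (0.974 to 1.02). Its values were 14879 reads, 633 TPM and 433 FPKM in dsNat10, and 15093 reads, 612 TPM and 428 FPKM in dsGFP.

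Set against each other within a library, which needs no scaling, there were 1.724 reads of Dppa2 per read of Dppa4 in dsNat10 and 1.997 in dsGFP. The quotient of these ratios was 0.863 (0.839 to 0.888, counting error only), so that relative to Dppa4 the reads of Dppa2 were fewer in dsNat10. In TPM, Dppa2 stood at 1.19 times Dppa4 in dsNat10 and at 1.38 times in dsGFP. The counts of both genes were whole numbers, although 22.9% of the distinct 100-base stretches of Dppa2 transcripts also occur in the processed pseudogene Gm9788 and 13.1% of those of Dppa4 in the processed pseudogene Gm14058. No source used here gives how reads from such copies were assigned.

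Few genes of the 2-cell stage that Dppa2 and Dppa4 activate in stem cells passed the filter. Of 21 such genes, 9 were in the table and 2 passed the filter, 1 higher and 1 lower by the size rule (15.2% and 15.3% of all genes). Tdpoz2 had 671 reads in dsNat10 against 280 in dsGFP, 2.42-fold higher (2.10 to 2.79), with fractional counts. Mael, a protein that protects the germ line against transposons and the most abundant of the list, had 347 reads against 850, 2.42-fold lower (2.14 to 2.75). The summed TPM of the list was 55.2 in dsNat10 and 59.8 in dsGFP.

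Relatives of Dppa5a with a KH domain differed more than Dppa5a itself. Of 5 in the table, all passed the filter, 2 were higher and 1 was lower (15.2% and 15.3% of all genes), with a median log2 ratio of 0.73. Abundance differs as well. Other than Khdc3, they lie between 5 and 20 CPM, where 54.7% of genes were called. At 200 CPM or more, where Dppa5a and Khdc3 lie, 3.02% were called. Khdc3, a maternal protein of the egg's cortex and the most abundant of these relatives, had 71256 reads in dsNat10 against 29411 in dsGFP, 2.45-fold higher (2.41 to 2.48). Khdc1c was 3.05-fold higher (2.41 to 3.90) and Khdc1b 12.1-fold lower (7.99 to 19.2), both with fractional counts and therefore uncertain. Khdc1b, at 0.840 CPM in dsNat10 and 10.2 CPM in dsGFP, passed the filter only through dsGFP. Khdc1c, at 9.84 CPM in dsNat10 and 3.22 CPM in dsGFP, passed it only through dsNat10. Ooep, which lies beside Dppa5a on chromosome 9, had 548 reads in dsNat10 against 323 in dsGFP. There were 255 reads of Dppa5a per read of Ooep in dsNat10 and 408 in dsGFP, a quotient of 0.626 (0.546 to 0.719).

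Utf1 and Spic, the chromatin and transcription factors of the set, were both lower by less than 1.5-fold. Utf1 (Entrez gene 22286, chromosome 7, 139943856 to 139945112, plus strand) binds chromatin in embryonic stem cells and limits the expression of genes held in a poised state. It had 3111 reads, 165 TPM and 113 FPKM in dsNat10, and 3797 reads, 192 TPM and 134 FPKM in dsGFP. The fold was 1.21 lower in dsNat10 (1.15 to 1.27).

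Among Polycomb and decapping genes with which Utf1 acts, 8 of 9 in the table passed the filter. Of these, 1 was higher and 1 lower (15.2% and 15.3% of all genes), with a median log2 ratio of 0.03. Jarid2, a subunit of the Polycomb complex that methylates histone H3 and the most abundant of the list, had 19931 reads in dsNat10 against 20894 in dsGFP, with fractional counts. Ezh1, a histone methyltransferase of that complex, was 4.99-fold higher (4.36 to 5.74), with 1250 reads against 253. Dcp1a, a cofactor of mRNA decapping, had 1 read in dsNat10 against 1244 in dsGFP, 1231-fold lower, where counting error alone allows 221 to 48672. Dcp1a passed the filter only through dsGFP, and genes at 0 reads were more frequent in dsNat10 over the whole table.

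Spic (Entrez gene 20728, chromosome 10, 88675269 to 88683023, minus strand) is a transcription factor of the Ets family, known from the macrophages that recycle iron in the spleen and expressed in the early embryo. It had 5990 reads, 286 TPM and 196 FPKM in dsNat10, and 8289 reads, 377 TPM and 264 FPKM in dsGFP. Its level was 1.37-fold lower in dsNat10 (1.32 to 1.42), the largest difference among members with whole counts. In TPM it was 1.32-fold lower. Of 2 related Ets factors, 1 was in the table: Spi1 had 0 reads in dsNat10 and 44 in dsGFP, below the filter. Of 8 macrophage or blood markers, 3 were in the table, 2 passed the filter and 0 were called (30.5% of all genes). Pecam1, the most abundant of them, had 1879 reads in dsNat10 against 1036 in dsGFP, 1.83-fold higher (1.70 to 1.98). Cd68 had 673 reads against 880, 1.29-fold lower (1.17 to 1.43), and Hba-a1 82 against 191.73, below the filter. Whether these reads came from macrophages or blood cells was not measured, and the part of such cells in the value of Spic was not tested.

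Lin28a (Entrez gene 83557, chromosome 4, 134003330 to 134019196, minus strand) binds precursors of the let-7 microRNAs and blocks their maturation. It had 4719 reads, 74.0 TPM and 50.6 FPKM in dsNat10, and 4385 reads, 65.3 TPM and 45.7 FPKM in dsGFP. The level was 1.09-fold higher in dsNat10 (1.04 to 1.13). Its paralogue Lin28b had 451 reads in dsNat10 and 424 in dsGFP. Lin28a stood at 16.5 times the TPM of Lin28b in both libraries, and the quotient of their read ratios was 1.01 (0.881 to 1.16), so a difference in their balance was not detectable at this depth.

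In the let-7 pathway, 14 of 17 genes passed the filter, and 3 of them were called lower (15.3% of all genes) and 0 higher (15.2% of all genes). Their median log2 ratio was -0.34. The 3 genes below the filter had few or no reads in dsNat10: Tut4, a terminal uridyltransferase, had 3 against 259 in dsGFP, the transcription factor Mycn 0 against 114, and the exonuclease Dis3l2 0 against 34. Trim71, an RNA-binding ubiquitin ligase that is a known let-7 target, had 0 reads in dsNat10 against 506 in dsGFP, at least 167-fold lower against a floor of 3 counts in the dsNat10 library, while the exact interval used for the other folds gives a limit of 135-fold. It is among the 2651 genes at 0 in dsNat10, and it passed the filter only through dsGFP. Dgcr8, the partner of Drosha in cutting microRNA precursors, was 3.08-fold lower (2.78 to 3.42), and Hmga1, a chromatin protein, 2.99-fold lower (2.74 to 3.25), both with fractional counts. The most abundant gene of the list, the RNA-binding protein Igf2bp1, had 7902 reads in dsNat10 against 9764 in dsGFP, 1.22-fold lower (1.19 to 1.26). The microRNAs themselves were not measured in polyadenylated RNA.

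Carm1 (Entrez gene 59035, chromosome 9, 21546894 to 21589467, plus strand) methylates arginines of histone H3 and other proteins, and in mouse blastomeres a higher level of it directs cells towards the inner cell mass. It had 526.56 estimated reads, 8.97 TPM and 6.13 FPKM in dsNat10, and 939.05 reads, 15.3 TPM and 10.7 FPKM in dsGFP. The level was 1.76-fold lower in dsNat10 (1.58 to 1.97), and 1.70-fold lower in TPM. It is the least abundant member.

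Carm1 overlaps Yipf2 (Entrez gene 74766, chromosome 9, 21588682 to 21592831), which lies on the opposite strand. Of the distinct 100-base stretches of Carm1 transcripts, 13.8% occur in reverse complement in transcripts of Yipf2, and the SMART-seq2 kit does not mark strand, so reads from there cannot be told apart. Yipf2 had 1244.44 reads in dsNat10 and 1090.95 in dsGFP, 1.15-fold higher in dsNat10 (1.06 to 1.25). The fractions of the pair added to whole numbers in both libraries, giving 1771 reads in dsNat10 and 2030 in dsGFP, equal to a whole number at the 2 decimals deposited. Summed, the pair was 1.13-fold lower in dsNat10 (1.06 to 1.21), a value in which Yipf2 has the larger part of the reads. There were 0.423 reads of Carm1 per read of Yipf2 in dsNat10 and 0.861 in dsGFP, and how much of that comes from the splitting of shared reads was not tested.

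**Figure D3:**
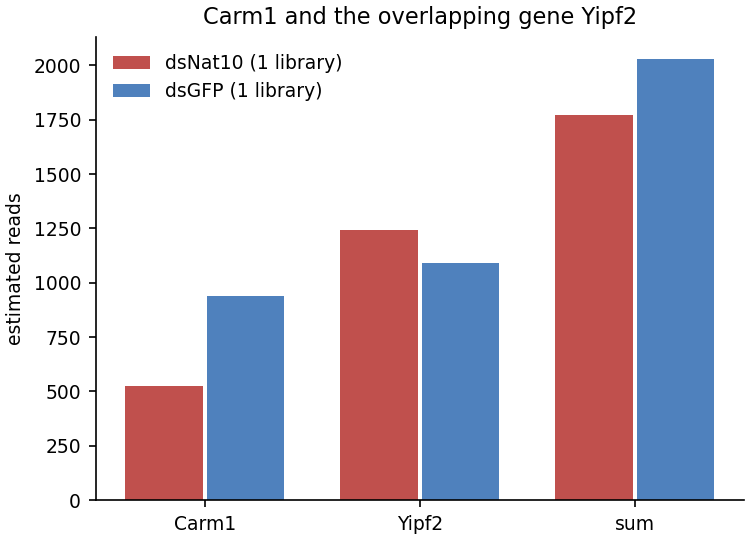
Estimated reads of Carm1, of Yipf2 and of their sum, with 1 bar per library (red dsNat10, blue dsGFP) and no error bars because there is 1 library per group. Carm1 had fewer reads in dsNat10 and Yipf2 more, and the sums of 1771 and 2030 differ less than the Carm1 bars do.

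Other arginine methyltransferases and partners of Carm1 mostly kept within the size limit, and 30.5% of all genes that passed the filter were called. Of 18 in the table, 14 passed the filter, 1 higher and 1 lower (15.2% and 15.3% of all genes), with a median log2 ratio of 0.06. Of the 4 below it, Prmt2 was at 0 reads in dsNat10, against 208 in dsGFP. Prmt5, the main enzyme of symmetric arginine methylation and the most abundant of the list, had 13037 reads in dsNat10 against 13291 in dsGFP. Nono, a nuclear RNA-binding protein that Carm1 methylates, was 3.38-fold lower (3.23 to 3.53). Med12, a Mediator subunit that Carm1 methylates, was 3.03-fold higher (2.67 to 3.44), with 974 reads in dsNat10 against 325 in dsGFP.

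Tdgf1 and Gdf3, the signalling proteins of the set, both differed by less than 1.5-fold. Tdgf1 (Entrez gene 21667, chromosome 9, 110939608 to 110946158, minus strand), also known as Cripto, is a membrane-bound co-receptor for Nodal. It had 1918 reads, 56.9 TPM and 38.9 FPKM in dsNat10, and 1583 reads, 44.8 TPM and 31.4 FPKM in dsGFP. Its level was 1.22-fold higher in dsNat10 (1.14 to 1.31), the highest ratio in the set, and 1.27-fold higher in TPM.

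Gdf3 (Entrez gene 14562, chromosome 6, 122605403 to 122610087, minus strand) is a ligand of the TGF-beta family that can signal through the same receptors. It had 2094.98 reads, 81.3 TPM and 55.6 FPKM in dsNat10, and 2197 reads, 86.2 TPM and 60.3 FPKM in dsGFP. The level was 1.04-fold lower in dsNat10 (0.977 to 1.10), which does not exceed counting error. Tdgf1 relative to Gdf3 stood at 0.916 reads per read in dsNat10 and 0.721 in dsGFP, a quotient of 1.27 (1.16 to 1.39). Dppa3, the next gene along the chromosome and a protector of DNA methylation in the zygote, had 147046 reads in dsNat10 and 136586 in dsGFP, 1.09-fold higher (1.08 to 1.10). Relative to Dppa3, Gdf3 had a quotient of 0.886 (0.834 to 0.941).

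In the Nodal pathway, 8 of 11 genes in the table passed the filter, and 2 of them were called higher (15.2% of all genes) and 0 lower (15.3% of all genes), with a median log2 ratio of 0.12. The 3 genes below the filter were all at 0 reads in dsNat10: Acvr1b, a type I activin receptor, against 133 reads in dsGFP, the signal transducer Smad3 against 66, and the co-receptor Cfc1 against 21. The count of 0 lower therefore leaves out genes whose only reads were in dsGFP. Both called genes encode type II activin receptors, through which Nodal and Gdf3 signal. Acvr2b had 1427 reads in dsNat10 against 399 in dsGFP, 3.61-fold higher (3.23 to 4.05), and Acvr2a was 2.15-fold higher (1.90 to 2.43), with fractional counts. The most abundant gene of the list, the chaperone Hspa5, had 14159 reads against 27787, 1.94-fold lower (1.90 to 1.98), just inside the size limit. Nodal, Lefty1 and Lefty2 were not found in the table by symbol.

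Tdh (Entrez gene 58865, chromosome 14, 63492347 to 63509092, minus strand) encodes threonine dehydrogenase, the mitochondrial enzyme by which mouse embryonic stem cells break down threonine to glycine and acetyl-CoA. It had 2315 reads, 70.5 TPM and 48.2 FPKM in dsNat10, and 2269 reads, 65.7 TPM and 46.0 FPKM in dsGFP. The level was 1.03-fold higher in dsNat10 (0.972 to 1.09), so no difference was detectable at this depth.

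Of 15 genes for threonine, glycine and one-carbon metabolism, all passed the filter. Among them 1 was higher and 1 lower (15.2% and 15.3% of all genes), and the median log2 ratio was -0.21. Gcat, which carries out the step after Tdh, had 694 reads in dsNat10 against 1880 in dsGFP, 2.68-fold lower (2.46 to 2.93). Tdh and Gcat thus differed in their ratios, 1.03 and 0.373 of dsNat10 over dsGFP. Psph, the last enzyme of serine synthesis, was 2.81-fold higher (2.46 to 3.22). Gcsh, a subunit of the glycine cleavage system and the most abundant of the list, was 1.29-fold lower (1.27 to 1.31), with 21985 reads against 28653.

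**Figure D4:**
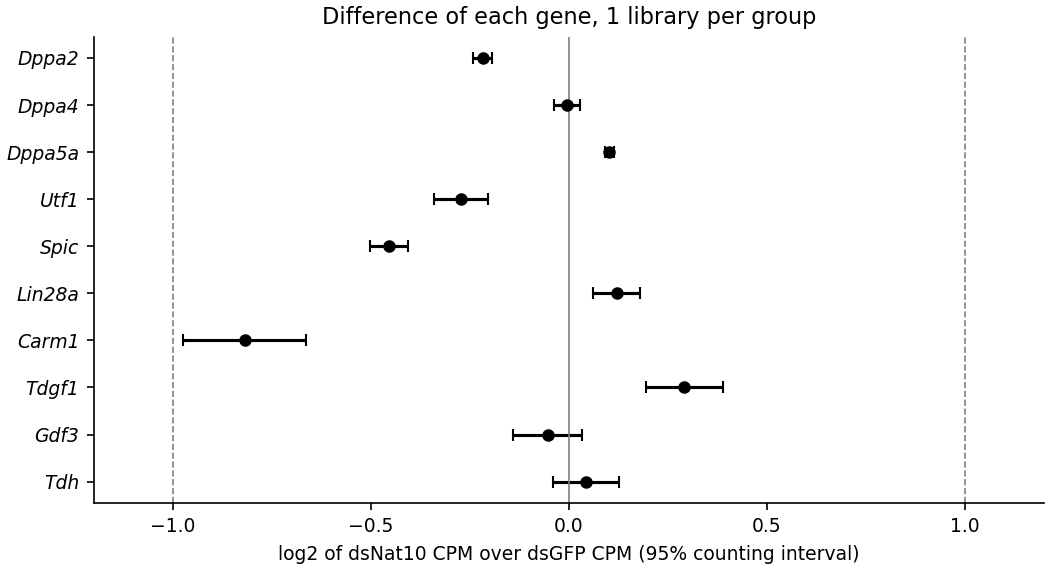
Log2 of dsNat10 CPM over dsGFP CPM (no pseudocount) for the 10 members, with points for the ratio and bars for the 95% counting interval. The solid line marks equality and the dashed lines 2-fold. Intervals of Dppa4, Gdf3 and Tdh cross equality, and Carm1 lies farthest from it.

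Further genes known from pluripotent cells spread more widely than the members. Of 28 in the table, 24 passed the filter, 2 were higher and 3 lower, and the median log2 ratio was 0.26. Lifr, the receptor for leukaemia inhibitory factor, had 930 reads in dsNat10 against 11 in dsGFP, 85.4-fold higher (47.5 to 172), with fractional counts. In TPM it was 30.9-fold higher, as the gene length behind that unit differed, at 8178 bases in dsNat10 against 2655 in dsGFP. Lifr, at 32.6 CPM in dsNat10 and 0.381 CPM in dsGFP, passed the filter only through dsNat10. Klf17 was 3.49-fold higher (3.13 to 3.89). Nanog, a core transcription factor of the inner cell mass, was 3.17-fold lower (3.08 to 3.26) with fractional counts, and Etv5, an Ets factor downstream of FGF signalling, was 2.69-fold lower, with 470 reads against 1279. Klf4 was the third lower gene, 2.61-fold (2.25 to 3.04), and Dppa3 was the most abundant of the list. The 4 genes below the filter (Il6st, Prdm14, Gbx2 and Morc1) were all at 0 reads in dsNat10, against 160, 50, 30 and 2 reads in dsGFP. Sox2 and Nr0b1 were not found in the table by symbol. The called share of this list, 5 of 24 genes, is below the 30.5% of all genes, as is the 0 of 10 of the members, and no test of the difference between the lists was made. Some genes of this list, such as Lifr and Klf4, lie between 5 and 20 CPM, where no member lies and 54.7% were called.

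**Figure D5:**
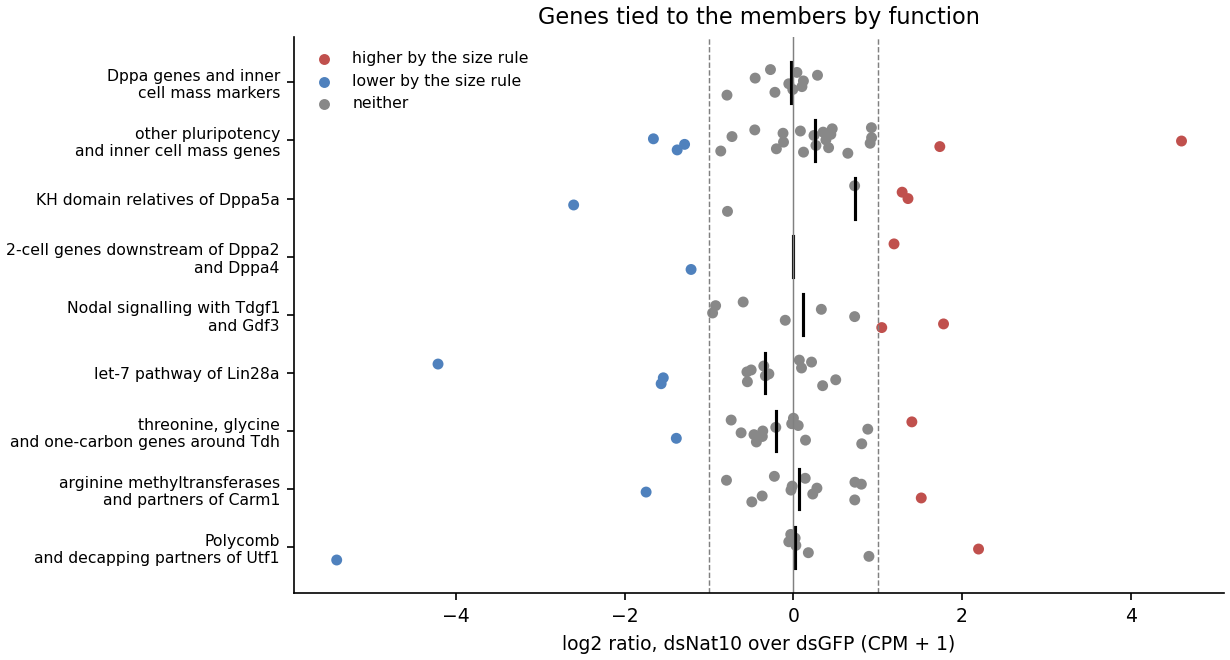
Log2 ratio of dsNat10 over dsGFP (CPM plus 1) for every gene that passed the filter in the members' list and in 8 lists tied to them by function. Each point is a gene, coloured by the size rule (red higher, blue lower, grey neither), black ticks are list medians and dashed lines mark -1 and 1. All 10 members are grey, and each of the other lists holds at least 1 coloured gene.

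The authors' FPKM and TPM divide by a gene length, which can be read back from the estimated reads, the FPKM and the library total. For Dppa2, Dppa5a, Utf1, Spic and Tdh that length was between 2.36 and 2.42 bases greater in dsNat10, close to the median of 2.39 over 3811 genes with 1000 or more reads in each library. Gdf3 departed from this, with a length of 1332 bases in dsNat10 against 1251 in dsGFP. A difference of 80 bases or more in size was found in 10.7% of those 3811 genes. Carm1 had 3035 bases against 3017, and Tdgf1 1742 against 1733. Since a longer divisor lowers FPKM, the FPKM of Gdf3 stood at 55.6 against 60.3 while its read counts differed by less. The length used for a gene can vary with the mix of transcripts assigned to it, and that mix was not measured here.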

How the data were processed

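Per the labels, RNA of dsNat10-injected and dsGFP-injected morulae was sequenced, 1 library each. Per the submitters' processing notes, Trim Galore, HISAT, the GRCm38 build and HTSeq were used; no source used here gives versions or annotation. Estimated counts were deposited without normalization, and for 23.2% of genes they are fractional. The authors also deposited FPKM, per kilobase and 1000000 reads, and TPM, scaled to 1000000 per library. HTSeq usually gives whole numbers, so how the fractions arose is unknown.

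Estimated counts were rounded to whole numbers and scaled by TMM (edgeR 4.0.16, R 4.3.3), which moved log2 ratios by -0.03 against plain totals. Genes were kept at a mean of at least 5 CPM, and a pseudocount of 1 CPM was added for log2 ratios, which understates differences of low genes. Intervals of the ratio of counts are exact (Clopper-Pearson, 95%), and those of quotients of 2 ratios use a normal approximation on the log scale. A gene at 0 reads in 1 library was bounded with a floor of 3 counts in that library.

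Shared 100-base stretches came from GENCODE M21 transcripts, and gene positions and promoters from RefSeq (GRCm38.p6), with all 10 members matched by Entrez gene. The members and lists were chosen with earlier results of these data known. Named genes were all members and, from each list, up to 4 called genes with the largest log2 ratio plus the most abundant; Ooep, Lin28b, Yipf2, Spi1, Cd68, Hba-a1, Klf4 and list genes below the filter were added after their values were seen. Alternatives were plain totals, DESeq2 1.42.0 size factors, deposited TPM and FPKM (size rule without the interval), unrounded counts, pseudocounts of 0.5 and 5, a mean CPM of 20, no filter and a 1.5-fold limit. The abundance bands, the ratios between 2 genes and the sum of Carm1 and Yipf2 were chosen after seeing the data.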

Additional observations from a re-analysis of the deposited data

How the results depend on the processing

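No paired analysis was possible because each group has 1 library, and for the same reason no replicate could be left out. Under the 10 alternatives, 0 of 10 members were called, except with a 1.5-fold limit, which called 1 member, Carm1, where 48.9% of all genes were called; the other 9 alternatives called 17.9% to 38.4% of all genes. The median log2 ratio of the members stayed between -0.05 and 0.00. The 8 related lists and the Ets relatives of Spic hold 113 genes of the table. Of those that passed the filter, 21 were called by the size rule, against 30.5% of all genes that passed. Called genes of these lists became 34 with no filter (38.4% of all genes) and 42 with a 1.5-fold limit (48.9%). Filters and the size limit, 3 of the alternatives, cannot move a member's log2 ratio. Under the other 7, 9 members kept their sign, and Dppa4 changed sign, between -0.02 and 0.05. Ranges were -0.80 to -0.68 for Carm1, -0.47 to -0.40 for Spic and 0.27 to 0.34 for Tdgf1. Of 70 member values under these 7, 61 stayed within the counting interval of the value reported. That share includes values that could not move or could hardly move. Unrounded counts leave the 7 members with whole counts unchanged, and pseudocounts act little on abundant members. All 9 values outside the interval arose under plain totals, DESeq2 size factors, TPM or FPKM. With Carm1 and Yipf2 summed, chosen after seeing the data, the log2 ratio was -0.18 against -0.79 for Carm1 alone. The sum holds all reads of Yipf2, 1244.44 of 1771 in dsNat10 and 1090.95 of 2030 in dsGFP. It therefore cannot show how far the Carm1 value depends on the splitting of shared reads. Counting error was widest for Carm1, the member with the fewest reads, and the lack of replicates limits every value: the counting interval holds no variation between embryos or in amplification.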
